A study of Mus musculus with 4 samples.

Results

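Genes that mark the nerve cells and pacemaker cells of the stomach wall were examined in whole stomach of male mice of 2 strains. The members were the probes whose platform annotation named exactly 1 gene, and that gene was Kit, Ano1, Thbs4, Vip, Vipr1, Nos1, Chat, Nefl, Uchl1 or S100b. Of these 10 genes, 9 had a probe (1 each, so 9 of 33012 probes), and no probe was named S100b alone. Of the 9 probes, 5 had a value on all 4 arrays and 4 had a value on some of them. The wild-type group was C57BL/6J, a common inbred strain. The B6.CAST-17 group was congenic and homozygous: its name denotes C57BL/6J mice in which a piece of chromosome 17 comes from CAST mice. All mice ate chow and went without food for 4 h before the stomach was taken, and their age is not given in the labels. Each strain was measured as 2 pools of RNA from 3 animals, 6 animals per strain, with 1 array per pool. The study's title names the receptor gene Glp1r and the rate at which the stomach empties, and the genes described here are those of the cells that set and carry that movement.

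The stomach wall moves in slow waves that start in interstitial cells of Cajal, the pacemaker cells, which need the receptor tyrosine kinase Kit to survive and carry the calcium-activated chloride channel Ano1. Enteric neurons lie in a plexus between the muscle layers. Excitatory neurons release acetylcholine, made by Chat, and tachykinins, and inhibitory neurons release nitric oxide, made by Nos1, together with vasoactive intestinal peptide, encoded by Vip. Glial cells surround these neurons and are commonly stained for the calcium-binding protein S100b. In whole stomach, all of these cells are a minority beside mucosa and smooth muscle, and in such tissue fewer cells of a type and less RNA per cell cannot be told apart.

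None of the 10 genes lies on chromosome 17, the chromosome named in the congenic strain. In the mouse reference annotation (GRCm38.p6), Kit, Nos1 and Uchl1 are genes of chromosome 5, Ano1 of chromosome 7, Vipr1 of chromosome 9, Vip and S100b of chromosome 10, Thbs4 of chromosome 13, and Chat and Nefl of chromosome 14. The 100 bases before the start site are shown for Kit, Ano1 and Vip, the 3 genes with values on all arrays in which the pools of the strains did not overlap. They were read from a RefSeq table (GRCm38.p6), in which 9 of the 10 genes matched and Nefl did not. The Ano1 start in that table lies inside the annotated span of the gene, not at its edge. Capitals mark the CRE core TGACGTC, the TATA box TATAAA and the GC box GGGCGG, searched on both strands, and these matches did not overlap one another.
Kit (chr5:75574887-75574986, plus strand): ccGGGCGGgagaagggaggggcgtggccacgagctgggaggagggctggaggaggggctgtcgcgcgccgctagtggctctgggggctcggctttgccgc
Ano1 (chr7:144738574-144738673, minus strand): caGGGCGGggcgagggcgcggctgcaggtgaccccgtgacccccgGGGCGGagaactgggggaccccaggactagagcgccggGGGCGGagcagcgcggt
Vip (chr10:5639118-5639217, plus strand): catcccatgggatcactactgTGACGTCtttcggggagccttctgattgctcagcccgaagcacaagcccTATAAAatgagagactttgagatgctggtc

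The Vip stretch holds a cyclic AMP response element core and a TATA box, and those of Kit and Ano1 hold GC boxes. In the full window of 250 bases before and 50 bases after the start, G and C made up 41.7% of the Vip bases, 69.0% of the Kit bases and 71.7% of the Ano1 bases, against a median of 52.7% over all promoters of the table. The core TGACGTC begins at position -79 from the Vip start, was found in no window of the other 8 genes and occurs in 3.33% of 27025 promoters. TATAAA occurs in 14.2% of them and GGGCGG in 35.9%. These letters are those of the reference strain, and the CAST sequence was not used here.

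Values are deposited log2 signals, and differences are congenic minus wild type, ± SE, with n = 2 pools per strain. The pools of a strain are biological replicates per the design text, and p-values measure the spread between pools, not between single animals. The arrays had values for between 16320 and 16954 probes and shared a median of 12.82 over the 13475 probes with a value on all 4 arrays, which were compared in 1 fit. In that fit 2127 probes had an unadjusted p under 0.05 (15.8%), the share to set beside each list count at that p below. In the same fit 64 probes passed an adjusted p of 0.05 (0.475%). Leaving out congenic pool 1 or 2 gave 15 or 27 such probes, and leaving out wild-type pool 1 or 2 gave 61 or 168. The tissue label was checked with a list of mucosal genes such as the proton pump subunits Atp4a and Atp4b, and all 8 of its genes with a probe had values on all arrays. Probes differ in brightness, so a level is not an amount of RNA that can be compared between genes, and a reading's place among the probes of an array is given only to show how dim a probe is.

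None of the 5 probes measured on all arrays passed over all probes in limma, and 1 of them, Vip, had an unadjusted p under 0.05. In 3 of the 5, Kit, Ano1 and Vip, both congenic pools read above both wild-type pools. Such separation in either direction was present in 49.4% of all probes compared, and in this direction in 23.4%, and with 5 genes the count of 3 is given as a description only. An exact permutation test of 2 pools against 2 cannot give a two-sided p below 0.3333, and these 3 genes gave that value.

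**Figure D1:**
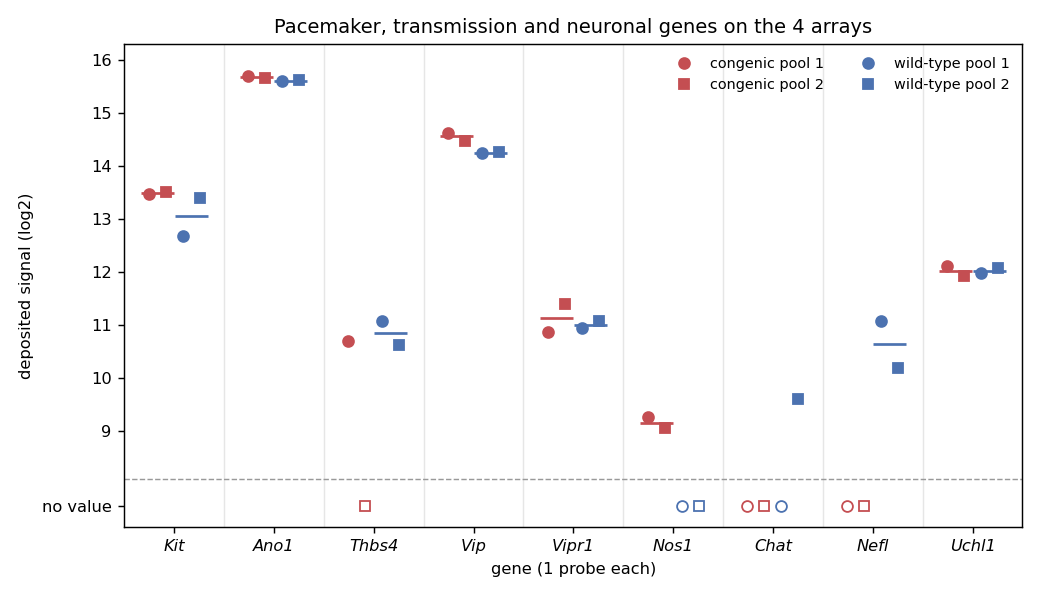
Deposited log2 signal (vertical axis) of the 9 probes (horizontal axis), 1 per gene, on the 4 arrays. Red marks are congenic pools and blue marks wild-type pools, circles are pool 1 and squares pool 2, bars are means of 2 values, and open marks below the dashed line are pools with no value. Kit, Ano1, Vip, Vipr1 and Uchl1 have 4 values each, Nos1 has values in the congenic pools alone, and Nefl in the wild-type pools alone.

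Kit, the receptor for stem cell factor that defines the pacemaker cells, read 13.47 and 13.51 in congenic pools 1 and 2 (probe 922274). It read 12.69 and 13.40 in wild-type pools 1 and 2. Wild-type pool 1 was low, and the other 3 pools lay close together, so the strains were separated by a narrow margin. The difference was 0.44 ± 0.23 (95% confidence interval -0.11 to 0.99, limma adjusted p = 0.3957), while the wild-type pools alone differed by 0.71. Without wild-type pool 1 the difference was 0.09 ± 0.13, and without wild-type pool 2 it was 0.80 ± 0.13 (limma adjusted p = 0.06606). The size of the Kit difference therefore rested on which wild-type pool was used, and it passed in neither case.

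Kit is also carried by mast cells, so a list of mast cell genes was read beside it. Of 10 mast cell genes with a probe, 7 were measured on all arrays. In limma 0 passed and 2 had an unadjusted p under 0.05, against 15.8% of all probes. Those were the carboxypeptidase Cpa3 (-0.66 ± 0.18) and the chymase Cma1 (-0.63 ± 0.20), both lower in the congenic pools. Over the 7 genes 3 differences were above 0 and 4 below, from -0.66 to 0.55. The tryptase gene Tpsab1, on chromosome 17, read 11.91 and 11.99 in the congenic pools and had no value in either wild-type pool. Near this level, among 2979 other probes within 0.5 of the mean of Uchl1 (12.03), 0.504% had that pattern. A blank is not read as an absent transcript, and a strain difference of Tpsab1 was not tested. The log2 of the summed signal of the 7 genes lay between 16.46 and 16.80 in the congenic pools and between 16.61 and 16.74 in the wild-type pools. The Fc receptor genes Ms4a2 and Fcer1a, which define these cells, each had a value on 1 array. The part of mast cells in the Kit signal was not tested.

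Ano1 read 15.69 and 15.66 in the congenic pools and 15.60 and 15.62 in the wild-type pools (probe 931126). The pools of each strain nearly coincided, with gaps of 0.03 and 0.02, and the congenic pair lay slightly above the wild-type pair. The difference was 0.07 ± 0.069 (limma adjusted p = 0.6539). Its 95% interval ran from -0.10 to 0.24, or from 0.932-fold to 1.18-fold, the narrowest of the 5 genes. Ano1 is also a channel of pancreatic acinar cells, and 11 acinar genes were measured on all arrays. Of these, 10 passed an adjusted p of 0.05 in limma as higher in the congenic pools, against 0.289% of all probes. They were Cela2a, Cela3b, Cpa1, Cpb1, Ctrb1, Prss1, Prss3, Amy2a5, Cel and Reg1, from 0.73 ± 0.069 (Prss3) to 3.23 ± 0.081 (Cela2a). The median over the 11 was 2.49. The 1 that did not rise, Clps, on chromosome 17 (-0.09 ± 0.14), was the brightest of the 11. It read 19.82 and 19.50 in the congenic pools and 19.62 and 19.87 in the wild-type pools. The log2 of the summed signal of those 11 genes, in which Clps weighs most, lay between 20.36 and 20.57 in the congenic pools. It lay between 19.94 and 20.14 in the wild-type pools. The median difference of the 11 was 2.488 without congenic pool 1 and 2.495 without congenic pool 2. The part of acinar tissue in the Ano1 signal was not tested.

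Thbs4, an extracellular matrix protein found on pacemaker cells and in tendon and muscle, had a value on 3 arrays (probe 877390). It read 10.70 in congenic pool 1, had no value in congenic pool 2, and read 11.08 and 10.62 in the wild-type pools. The single congenic value lay between the wild-type values. In a fit that allowed 1 blank, the difference was -0.15 ± 0.31 (95% confidence interval -0.96 to 0.66, limma adjusted p = 0.8514). Of 3815 other probes whose mean lay within 0.5 of that of Thbs4, 54.0% had values on all arrays and 15.7% on exactly 3. Skeletal muscle and tendon also carry Thbs4, and 9 of their listed genes were measured on all arrays. Of these, the muscle genes Acta1, Myl1 and Tnnt3 passed an adjusted p of 0.05 in limma. All 3 were lower in the congenic pools, as were 0.186% of all probes at that threshold, and 0 passed as higher. An unadjusted p under 0.05 was reached by 8, against 15.8% of all probes. Pools did not overlap, in either direction, in 9 of the 9, against 49.4%. The differences were below 0 for 8 and above 0 for 1, with a median of -1.08. The 1 above 0 was that of Scx, a transcription factor of tendon, which read 10.98 and 10.83 in the congenic pools and 10.76 and 10.29 in the wild-type pools (0.38 ± 0.24). The tendon gene Tnmd read 9.82 in congenic pool 1 and 9.15 in wild-type pool 1 and had no value in the other pools, and Mkx read 11.63 in congenic pool 1 alone. The log2 of the summed signal of the list was 16.34 and 16.37 in the congenic pools and 17.33 and 17.39 in the wild-type pools. The median difference of the list was -1.046 without congenic pool 1 and -1.114 without congenic pool 2. The part of muscle in the Thbs4 signal was not tested.

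The wider pacemaker list held 14 genes, of which 12 had a probe and 8 had values on all arrays. In limma 0 of the 8 passed and 0 had an unadjusted p under 0.05, with 5 differences above 0, 3 below and a median of 0.068, against -0.002 over all probes. The median was -0.041 where 1 blank was allowed. Etv1, a transcription factor of pacemaker cells, read 11.93 and 12.56 in the congenic pools and 11.89 and 11.73 in the wild-type pools, a difference of 0.43 ± 0.23. Gja1, a gap junction protein, differed by -0.42 ± 0.28. The pools of the strains did not overlap, in either direction, in 6 of the 8 genes, against 49.4% of all probes. With 8 genes that count is given as a description only. Kitl, which encodes the ligand of Kit, had no value in congenic pool 2 and read 10.49 in congenic pool 1, and 10.55 and 10.96 in the wild-type pools. Interstitial cells that carry Pdgfra and relay inhibitory signals to muscle were also listed. Of 9 such genes, 4 had values on all arrays, 0 passed, 0 had an unadjusted p under 0.05 in limma, and differences ran from -0.04 to 0.19. Pdgfra itself had no value on any array.

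Among inhibitory transmission genes, Vip had the smallest p of the members. The peptide it encodes relaxes gastric smooth muscle. The Vip probe (359418) read 14.63 and 14.48 in the congenic pools and 14.24 and 14.26 in the wild-type pools. Both congenic pools lay above both wild-type pools, and the difference of 0.30 ± 0.088 was larger than the gap between the congenic pools (0.15) or the wild-type pools (0.02). It corresponded to 1.23-fold, with a 95% interval from 1.06-fold to 1.43-fold. The unadjusted limma p was 0.01377, and 6.12% of all probes had a smaller one, so that the adjusted p was 0.2247 and the gene did not pass. With any 1 pool left out the difference lay between 0.23 and 0.38, and the limma adjusted p between 0.3327 and 0.4508.

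Vipr1 encodes a receptor for the peptide. Its probe (736967) read 10.87 and 11.40 in the congenic pools and 10.94 and 11.07 in the wild-type pools. The wild-type pools lay between the congenic pools, which were 0.53 apart, more than the strains were. The difference was 0.13 ± 0.23 (95% confidence interval -0.44 to 0.71, limma adjusted p = 0.804), and it was -0.13 without congenic pool 2. The second receptor, Vipr2, had values on 2 arrays, 9.43 in congenic pool 2 and 10.38 in wild-type pool 1.

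Nos1, the neuronal nitric oxide synthase, read 9.26 and 9.07 in the congenic pools and had no value in either wild-type pool (probe 432708). These readings lay above 4.02% and 1.99% of the values of their arrays, at the dim end. The rule behind blank cells is not given in the sources used here, so a blank is not read as an absent transcript and no fold is given. Blanks are common at this level: of 2404 other probes with a mean within 0.5 of that of Nos1, 5.53% had values on all arrays and 5.95% had the same pattern, both congenic pools and no wild-type pool. With a window of 1 in place of 0.5, these shares were 11.6% and 5.77%. A strain difference of Nos1 was therefore not tested, and these data do not show whether it differed.

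The inhibitory list held 15 genes, 13 with a probe and 6 with values on all arrays. Of these 6, 0 passed in limma and 2 reached an unadjusted p under 0.05, with 5 differences above 0, 1 below and a median of 0.19. That median became 0.31 with congenic pool 1 left out, 0.28 with wild-type pool 1 left out and 0.059 with congenic pool 2 left out. Pools did not overlap in 3 of the 6, against 49.4% of all probes. Mrvi1, a substrate of the cyclic GMP-dependent kinase through which nitric oxide relaxes smooth muscle, had the smallest p of all the nerve, pacemaker and glial genes compared. It read 10.12 and 10.61 in the congenic pools and 9.11 and 9.22 in the wild-type pools, with a difference of 1.20 ± 0.32 (95% confidence interval 0.42 to 1.99, limma adjusted p = 0.1994). Gal, the neuropeptide galanin, differed by 0.22 ± 0.11. The kinase itself, Prkg1, has 2 probes, and the one with the highest mean had values in both wild-type pools, 9.53 and 9.69, and in no congenic pool. Blanks are common at such dim levels, and a strain difference of Prkg1 was not tested.

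Chat, the enzyme that makes acetylcholine, had a value on 1 array, wild-type pool 2, where it read 9.60 (probe 551456). That reading lay above 5.15% of the values of the array. Of 3619 other probes with a mean within 0.5 of it, 45.1% likewise had exactly 1 value and 13.0% had values on all arrays. No strain difference was tested. The neighbouring step, loading of acetylcholine into vesicles by Slc18a3, was measured on all arrays at 14.16 and 14.49 in the congenic pools and 14.22 and 13.78 in the wild-type pools, and the strains overlapped (0.33 ± 0.18, limma adjusted p = 0.4255).

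The cholinergic and tachykinin list had 20 genes, 18 with a probe and 7 on all arrays. In limma 0 of these passed and 0 had an unadjusted p under 0.05, with 1 difference above 0 and 6 below. The pools overlapped in all 7, while they did not overlap in 49.4% of all probes. The median was -0.055, which was -0.011 without wild-type pool 1 and -0.096 without congenic pool 2. Penk, which encodes the enkephalins, differed by -0.067 ± 0.082, and Gna11, a G protein subunit downstream of muscarinic receptors, by -0.16 ± 0.11. The tachykinin gene Tac1 read 12.07 and 12.03 in the congenic pools and 12.10 and 12.06 in the wild-type pools.

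Uchl1, a ubiquitin hydrolase abundant in neurons and also known as PGP9.5, read 12.11 and 11.93 in the congenic pools and 11.98 and 12.08 in the wild-type pools (probe 926789). The wild-type values lay between the congenic ones. The difference was -0.011 ± 0.14 (limma adjusted p = 0.9779), with a 95% interval from -0.35 to 0.33, and its sign changed with the pool left out, to 0.08 without congenic pool 2 and 0.04 without wild-type pool 2. Uchl1 is also found in endocrine cells of the mucosa. Of 11 enteroendocrine genes measured on all arrays, 0 passed in limma and 4 reached an unadjusted p under 0.05, against 15.8% of all probes. All 11 differences were below 0, with a median of -0.20, which was -0.062 without congenic pool 2 and -0.30 without congenic pool 1. The smallest p-values belonged to the granule protein gene Pcsk1n (-0.93 ± 0.15) and the gastrin gene Gast (-0.59 ± 0.099). The log2 of their summed signal was 20.81 and 20.75 in the congenic pools and 21.05 and 21.11 in the wild-type pools. The part of endocrine cells in the Uchl1 signal was not tested.

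Nefl, the light neurofilament of axons, had the opposite pattern of blanks to Nos1 (probe 827260). It read 11.08 and 10.20 in wild-type pools 1 and 2, which were 0.88 apart, and had no value in either congenic pool. Of 3916 other probes with a mean within 0.5 of that of Nefl, 47.6% had values on all arrays and 1.74% had values in both wild-type pools and no congenic pool. With a window of 1, these shares were 46.0% and 1.59%. Over the whole table, 1677 probes had exactly 2 values. Of these, 25% had them in both congenic pools and 11.8% in both wild-type pools. Among related filament genes, Nefm had no value on any array, and Nefh read 9.48 in wild-type pool 1 alone. Ina had no value in congenic pool 2 and read 9.19 in congenic pool 1, and 10.25 and 9.78 in the wild-type pools.

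The general neuronal list, of 20 genes, had 17 with a probe and 8 on all arrays. In limma 0 passed and 0 had an unadjusted p under 0.05, with 2 differences above 0, 6 below and a median of -0.049, which was 0.042 without congenic pool 2. Prph, another neuronal intermediate filament, read 12.38 and 12.18 in the congenic pools and 12.14 and 12.10 in the wild-type pools (0.16 ± 0.13). Tubb3, the neuronal tubulin, differed by -0.17 ± 0.11, and Gap43, a growth cone protein, by -0.21 ± 0.27. Pools did not overlap in 2 of the 8, against 49.4% of all probes.

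Synaptic vesicle and excitability genes numbered 21, of which 17 had a probe and 7 had values on all arrays. In limma 0 passed and 2 reached an unadjusted p under 0.05, against 15.8% of all probes. Over the 7 genes 3 differences were above 0 and 4 below, from -0.57 to 0.58. The median was -0.27, which was 0.087 without wild-type pool 1, -0.16 without congenic pool 2 and -0.083 where 1 blank was allowed. Both genes with an unadjusted p under 0.05 encode vesicle proteins and were lower in the congenic pools. Rab3a, a small GTPase of vesicles, read 15.11 and 15.46 in the congenic pools and 15.64 and 15.70 in the wild-type pools (-0.38 ± 0.12, limma adjusted p = 0.2457). Vamp2, a vesicle fusion protein, differed by -0.27 ± 0.097 (limma adjusted p = 0.2808), and Syn2 by -0.57 ± 0.33. Snap25, the partner of Vamp2 in vesicle fusion, had no value on any array.

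S100b, the glial marker, had no probe named for it alone and therefore has no value here. Of 18 glial and Schwann cell genes, 9 had a probe and 4 had values on all arrays. In limma 0 of the 4 passed and 2 reached an unadjusted p under 0.05, in opposite directions, against 15.8% of all probes. The median of -0.079 was 0.052 without congenic pool 1, between -0.13 and -0.036 without each of the other pools, and 0.027 where 1 blank was allowed. Foxd3, a transcription factor of neural crest and glia, read 12.03 and 12.21 in the congenic pools and 11.67 and 11.48 in the wild-type pools (0.55 ± 0.15, limma adjusted p = 0.2113). Entpd2, a nucleotidase of enteric glia, read 13.08 and 13.16 in the congenic pools and 13.45 in both wild-type pools (-0.33 ± 0.094, limma adjusted p = 0.2205). The defining glial genes Gfap and Sox10 had no probe named for them alone. Adipocytes also carry S100b, and of their 4 genes measured on all arrays 0 passed in limma, 1 reached an unadjusted p under 0.05, and the median was -0.026. With 1 pool left out that median lay between -0.22 (without wild-type pool 2) and 0.079 (without wild-type pool 1), and was 0.019 without congenic pool 1 and -0.072 without congenic pool 2. The gene with that p was the fatty acid binding protein Fabp4 (-0.45 ± 0.087), and Car3, a carbonic anhydrase, differed by -0.058 ± 0.073.

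Genes that build the enteric nervous system were listed as well. Of 18, 12 had a probe and 6 had values on all arrays, 0 passed in limma, 1 reached an unadjusted p under 0.05, and the median was 0.24, which was 0.095 without wild-type pool 1 and -0.021 among probes at or above the median level. The gene with that p was Hoxb5, a homeobox gene of the gut's neural crest, at 12.23 and 12.47 in the congenic pools and 11.94 and 12.01 in the wild-type pools (0.38 ± 0.14, limma adjusted p = 0.2835). Tlx2, a homeobox gene of enteric neurons, differed by -0.67 ± 0.33, with wild-type pool 2 at 12.22 and the other 3 pools between 11.04 and 11.22. Ntrk3, a neurotrophin receptor, differed by 0.44 ± 0.29. The receptor Ret, which enteric neurons need, had no value on any array.

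**Figure D2:**
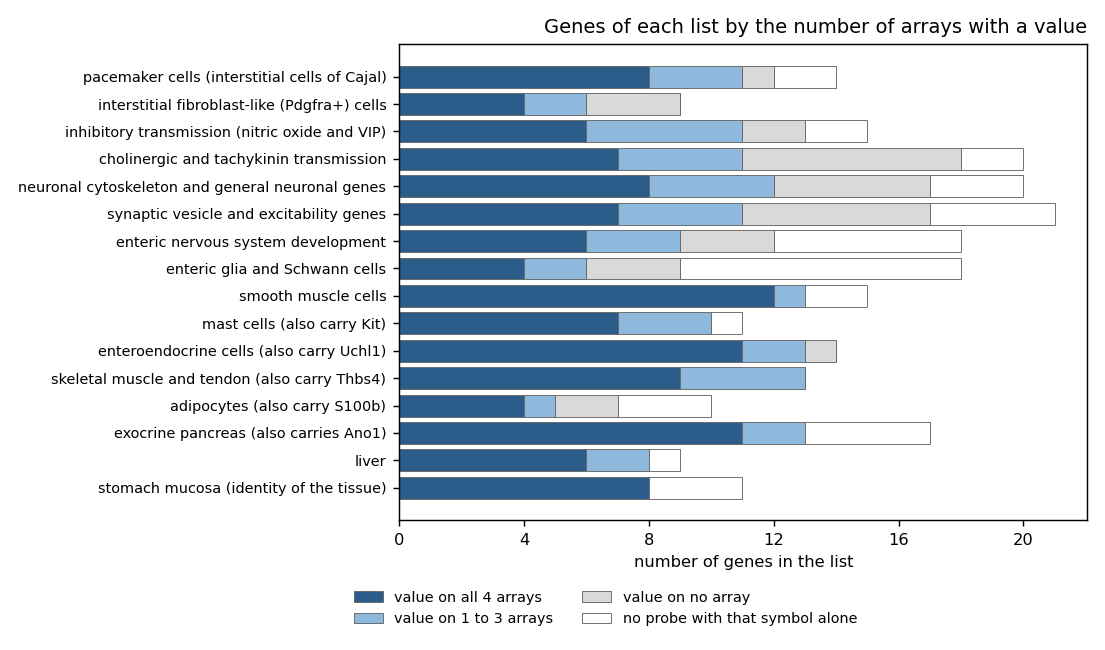
Number of genes (horizontal axis) in each of 16 lists (vertical axis), split by whether the gene's probe had a value on all 4 arrays, on 1 to 3 arrays or on none, or whether no probe was named for the gene alone. Of 18 cholinergic and tachykinin genes with a probe, 7 had values on all arrays, whereas 12 of 13 smooth muscle genes did.

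Across the 8 nerve, pacemaker and glial lists together there were 131 genes, 105 of them with a probe. Values were present on all arrays for 50, on some for 26 and on none for 29. The share on all arrays, 47.6%, compares with 54.9% of the 14411 probes of the table that have a single gene symbol. In limma 0 of the 50 passed and 7 had an unadjusted p under 0.05, 4 higher and 3 lower, which is 14%, against 15.8% of all probes. Differences were above 0 for 25 genes and below 0 for 25, with a median of -0.004. Pools did not overlap in 21 of the 50 (42%), against 49.4% of all probes. These shares were close to the background of the whole table. Of the 105 genes with a probe, 2 had values in both congenic pools alone, Nos1 and the scaffold gene Dlg4. Another 4, Nefl, Prkg1, Prkcq and Vamp1, had values in both wild-type pools alone. Of all 33012 probes, 419 had values in both congenic pools alone and 198 in both wild-type pools alone.

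**Figure D3:**
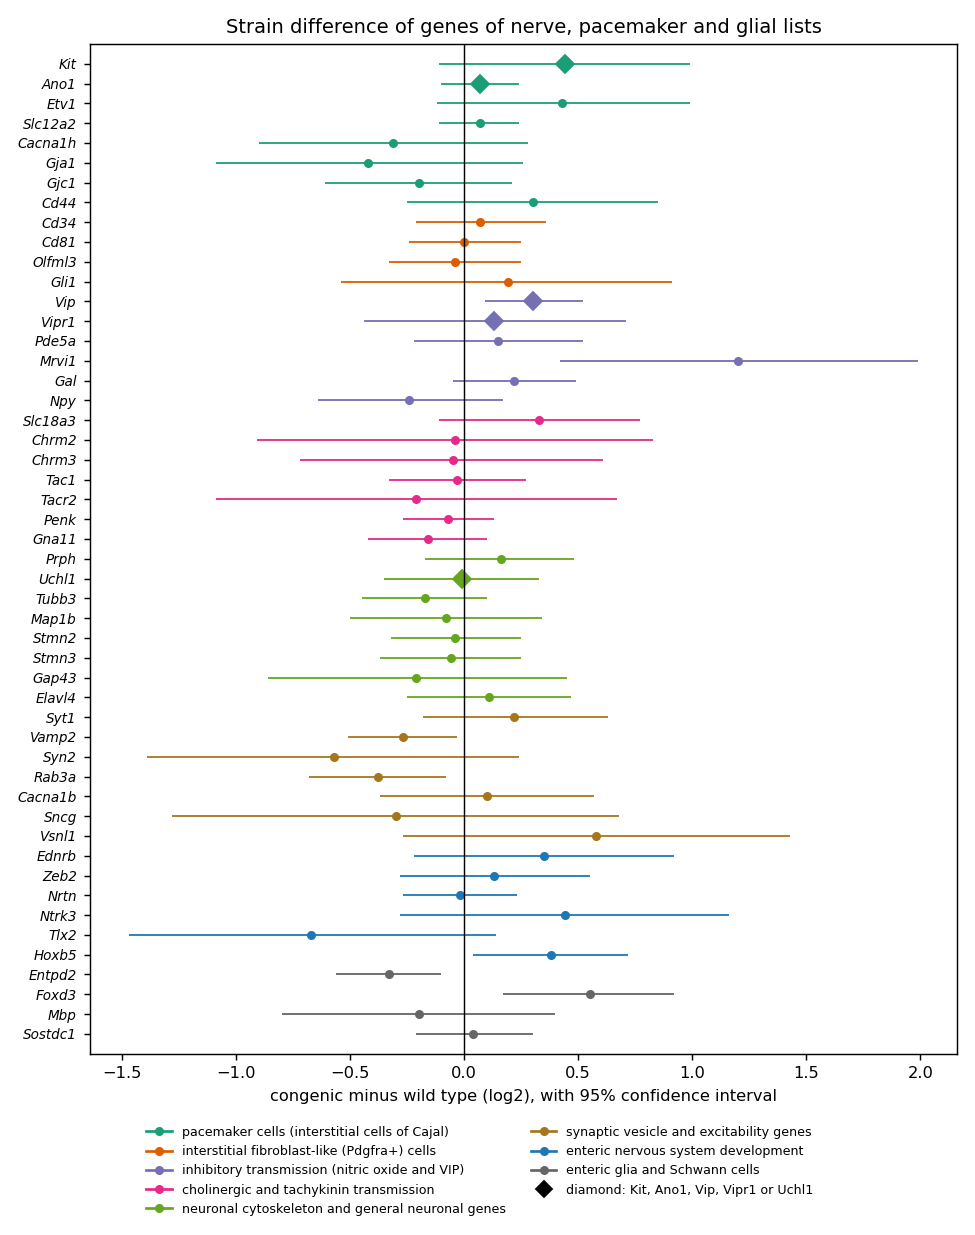
Congenic minus wild-type difference on the log2 scale (horizontal axis) for the 50 listed genes with values on all arrays (vertical axis), with 95% confidence intervals from limma. Colours mark the list, diamonds are Kit, Ano1, Vip, Vipr1 and Uchl1, and the intervals of 7 genes leave out 0, while no gene passed after adjustment over all probes.

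Of the 131 genes, 4 are genes of chromosome 17, the chromosome of the congenic segment. Nrtn, a growth factor of enteric neurons, differed by -0.021 ± 0.10, and Cacna1h, a calcium channel of pacemaker cells, by -0.31 ± 0.24, and neither passed in limma. Probe sequences were not used here, so whether the probes lie over bases that differ in CAST mice was not tested. Adcyap1, which encodes a neuropeptide related to Vip, had a value of 11.55 in congenic pool 2 alone. Slc5a7, the choline transporter of nerve endings, had no value on any array. Smooth muscle, the tissue that these cells drive, had 12 genes with values on all arrays. Of these, 0 passed in limma and 5 reached an unadjusted p under 0.05, against 15.8% of all probes. Over the 12 genes 4 differences were above 0 and 8 below. The median was -0.060, which was -0.13 without wild-type pool 1, -0.105 without wild-type pool 2 and -0.097 without congenic pool 1. The log2 of the summed signal of the 12 genes was 21.43 and 21.42 in the congenic pools and 21.40 and 21.56 in the wild-type pools. Hspb6, a small heat shock protein of muscle (-0.37 ± 0.071), and Smtn, which encodes smoothelin (-0.31 ± 0.077), had the smallest p-values there. Cald1, also among the 5, was higher in the congenic pools (0.46 ± 0.15).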

How the data were processed

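Whole-stomach RNA (1 microgram per array) was transcribed into digoxigenin-labelled cRNA and read on single-colour arrays, per the labels' protocols. The authors deposited 1 log2 signal per probe and array. How they normalized it, its log base and why cells are blank is not given in the sources used here. Base 2 was taken from the span of the values, 6.73 to 21.25, and each fold depends on that. Of the values of each array, 93.3% to 94.8% recur on at least 1 of the others.

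Probes were named through the platform annotation: 14411 had 1 gene symbol, 247 several and 18354 none. Groups and pool numbers came from the sample titles. No further normalization, pseudocount or filter was applied. The strains were compared by limma's moderated linear model (version 3.58.1, R 4.3.3), in which the variance prior followed the signal level. The model had 2 residual degrees of freedom and 3.97 from the prior. Tests were two-sided, p-values were adjusted by Benjamini-Hochberg across the 13475 probes with values on all arrays, and intervals are at 95%. The script was tested on simulated data. Single genes were also given an exact permutation test.

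The members and lists were chosen with earlier results of these data known. Named were every member, list genes that passed, and otherwise up to 3 genes by p per nerve, pacemaker or glial list and up to 2 per other list. Of a gene's probes, the one with the highest mean was used. Outside this rule, and chosen after their values were seen, were genes of chromosome 17, genes with blanks, Tac1, Scx and Cald1. Alternatives were quantile normalization, median centring, the pool number as a block, probes at or above the median level, 1 blank allowed, other variance models, each pool left out, an adjusted p of 0.1, and averaging the probes of a gene. A level window of 1 was chosen after seeing the data. Liver genes, read as a check of neighbouring tissue, had 1 of 6 past the threshold (Alb, 1.52 ± 0.15), 0 without congenic pool 1 or congenic pool 2, and 2 without wild-type pool 2. Mucosal genes had 0 of 8 in limma, with 1 at an unadjusted p under 0.05. Figures were drawn with matplotlib 3.10.9.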

Additional observations from a re-analysis of the deposited data

How the results depend on the processing

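Under the alternatives run, 0 members and 0 genes of the nerve, pacemaker and glial lists passed an adjusted p of 0.05 in limma over all probes. At an adjusted p of 0.1, tried in the fit of all 4 pools, the count was also 0, and Kit, at 0.06606 without wild-type pool 2, lay under 0.1. Kit, Ano1 and Vip kept the sign of their difference throughout. With a pool left out, Vipr1 lay between -0.13 and 0.40 and Uchl1 between -0.10 and 0.08, so both changed sign. The number of probes of the whole table that passed, 64, was 20 without the variance trend, 110 at an adjusted p of 0.1, and between 15 and 168 with a pool left out. With the pool number as a block (the replicate block) it was 35, and no member changed its call. Pools with the same number did not deviate together (correlation of deviations -0.064). With 2 pools per strain, that value cannot show whether the pools were processed as pairs. Every member has 1 probe, so using each probe on its own changed nothing. Vipr1 and Uchl1 lie below the median level and could not be fitted among the brighter probes. The number of arrays, 4, and the blanks of dim probes limit what can be seen, and signal over background is unknown.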
